A study of Homo sapiens with 6 samples.

Results

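The 8 genes described here are 3 actins (ACTB, ACTG1 and ACTA2), the transcription factor SRF, and 4 genes of actin-rich adhesions that SRF is known to drive (VCL, ZYX, FHL1 and FHL2). They were taken by gene symbol from a table of 36884 genes, each symbol stood in 1 row, and all 8 passed the filter on low counts. RNA was sequenced from RPE1, an immortalized human cell line from retinal pigment epithelium, after CRISPR-Cas9 had been used to inactivate LATS1 and LATS2, the Hippo pathway kinases that restrain YAP and TAZ. One group received siRNA against the kinase MK5, the product of MAPKAPK5 (3 libraries), and the other received control siRNA (3 libraries), both with the lipid reagent Lipofectamine RNAiMAX and for 48 h. LATS1 and LATS2 were inactivated in both groups, so the comparison says nothing of cells with these kinases. The labels call the libraries biologic replicates, but do not say whether the edited cells are 1 clone or whether replicates came from separate cultures, so the p-values measure the spread between these libraries.

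SRF, serum response factor, binds the CArG box, an A/T-rich element between C and G pairs, and works with partners of separate families. The myocardin-related factors MRTF-A and MRTF-B are held by unpolymerized actin and enter the nucleus when actin is assembled into filaments, where they drive genes of actin, of contraction and of adhesion. The ternary complex factors ELK1, ELK3 and ELK4 instead link SRF to ERK signalling and to immediate early genes. ACTB and ACTG1 encode the beta and gamma cytoplasmic actins that make up most of the filaments of non-muscle cells, while ACTA2 encodes the alpha actin of smooth muscle and of stress fibres in contractile cells. Vinculin (VCL) links talin and catenins to actin, zyxin (ZYX) is a LIM protein recruited to strained filaments, and FHL1 and FHL2 are small proteins built of LIM domains.

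Promoter stretches that hold the element SRF binds are shown first, since they are what these genes could share as SRF targets. RefSeq promoter windows (GRCh38.p14, 250 bases before to 50 bases after a transcript start) were found for 7 of the 8 genes, all but ACTB, and were searched for the CArG box, taken as 10 bases that open with CC, close with GG and hold only A or T between, which reads the same way on both strands. An exact match was present in ACTG1, SRF, FHL1 and FHL2, thus in 4 of 7 genes, whereas 1.29% of all 35116 windows of this length and 1.60% of all 27305 genes with a window hold one. FHL1 had 12 of the 23 windows searched, which gave it more room for a match. With 1 mismatch allowed, ACTA2 and ZYX also had a match, and VCL had none, but 22.3% of all genes then have one. Positions below count back from the transcript start, capitals mark the CArG match, and stretches that touch an annotated exon are cut to 30 bases.
ACTG1, chr17:81512874-81512903, minus strand: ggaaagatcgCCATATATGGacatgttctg
SRF, chr6:43171214-43171268, plus strand: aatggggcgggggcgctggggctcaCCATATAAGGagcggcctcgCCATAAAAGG
FHL2, downstream start, chr2:105399091-105399120, minus strand: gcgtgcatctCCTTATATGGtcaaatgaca
FHL2, upstream start, chr2:105438580-105438639, minus strand: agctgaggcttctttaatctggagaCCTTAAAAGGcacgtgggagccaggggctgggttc
ACTA2, chr10:88952810-88952919, minus strand: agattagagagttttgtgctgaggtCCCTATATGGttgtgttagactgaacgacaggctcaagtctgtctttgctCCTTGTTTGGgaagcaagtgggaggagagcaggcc
ZYX, chr7:143381229-143381258, plus strand: ccgggccgctCCTTGTATGGtctgggcgcc
The ACTG1 box spans positions −94 to −85 and is exact. SRF holds 2 exact boxes within its last 30 bases before the start, at −30 to −21 and −10 to −1. FHL2 has an exact box at each of the starts shown, at −59 to −50 and at −85 to −76. The pair in ACTA2, at −121 to −112 and −71 to −62, and the single box in ZYX, at −106 to −97, each differ from the consensus at 1 base. A match is a description of the letters, not evidence of binding in these cells.

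Libraries held between 27188074 and 28188824 counts with MK5 siRNA and between 27594088 and 28236773 with control siRNA. Levels are given as CPM, that is, counts relative to the TMM-scaled library total. MAPKAPK5, the siRNA's target, was at 17.4, 14.1 and 16.2 CPM in MK5 siRNA replicates 1, 2 and 3, against 35.55, 29.05 and 31.3 CPM in control replicates 1, 2 and 3. Its log2 fold change was −1.01 ± 0.14 (edgeR adjusted p = 0.00169). Replicate 1 stood apart in both groups. For genes with at least 2000 counts summed over the libraries compared, squared differences between replicates were set against the counting noise. The mean ratio over genes for replicate 1 was 53.5 and 65.5 with MK5 siRNA and 339 and 349 with control siRNA. Between replicates 2 and 3 it was 7.56 and 12.2. Medians over genes for replicate 1 were lower, at 11.2 and 13.4 with MK5 siRNA and 63 and 67.7 with control siRNA. Between replicates 2 and 3 they were 1.78 and 3.65. For ACTA2, FHL1 and some other genes, values without replicate 1 are therefore given as well. Where it is left out of both groups, the p-values measure only the spread between replicates 2 and 3. Of the 7 listed pigment epithelium markers, OTX2 and MITF were expressed (34.8 and 25.3 CPM with MK5 siRNA, 32.4 and 54.05 CPM in controls), while RPE65 and RLBP1 were nearly absent. The list summed to between 58.4 and 66.3 CPM with MK5 siRNA and between 83.6 and 95.4 CPM in controls. Of the 4 tested 2 fell, where 23.7% of all genes tested did. They were MITF (−1.09 ± 0.14, edgeR adjusted p = 0.00114) and PMEL, a melanosome gene at 0.546 CPM with MK5 siRNA and 2.04 CPM in controls (−1.89 ± 0.27, edgeR adjusted p = 0.00189). Of 4 epithelial markers the 2 tested, KRT8 and KRT18, both fell (23.7% of all genes tested did) and EPCAM had no count. Of 3 mesenchymal markers, VIM, FN1 and CDH2, none passed, where 46.2% of all genes tested did. The 5 listed striated muscle markers summed to between 0.202 and 0.243 CPM with MK5 siRNA and between 0 and 0.184 CPM in controls, 3 leukocyte markers to at most 0.474 CPM with MK5 siRNA and 0.295 CPM in controls, and 2 endothelial markers to at most 0.073 CPM with MK5 siRNA and 0.46 CPM in controls. The part of the moving pigment epithelium and epithelial markers in the results below was not tested.

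Both cytoplasmic actins and the adhesion genes VCL, ZYX and FHL2 fell after MK5 siRNA, while ACTA2, SRF and FHL1 did not pass the test. Thus 5 of 8 fell and none rose at an edgeR adjusted p below 0.05, where 46.2% of all 13431 genes tested passed, 23.7% as lower and 22.5% as higher. DESeq2 called 6 as lower and also none as higher (21.2% and 19.1% of all genes in DESeq2), and 0 members had a positive fold change with an unadjusted p below 0.05, the smallest being 0.224 for SRF. The replicate block likewise gave 6 lower, where 23.9% of all genes were, and leaving out replicate 1 of both groups gave 7, where 37.8% were. In the same 5 genes every MK5 siRNA library lay below every control library, which was so for 29.8% of all genes tested. The members' median log2 fold change was −0.95, against 0.00 over all genes tested, whose quartiles were −0.54 and 0.52. Each log2 fold change below sets MK5 siRNA over control siRNA and carries its standard error from the edgeR fit (n = 3 per group). In RNA from whole cultures, fewer cells that express a gene and less of its RNA per cell cannot be told apart.

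**Figure D1:**
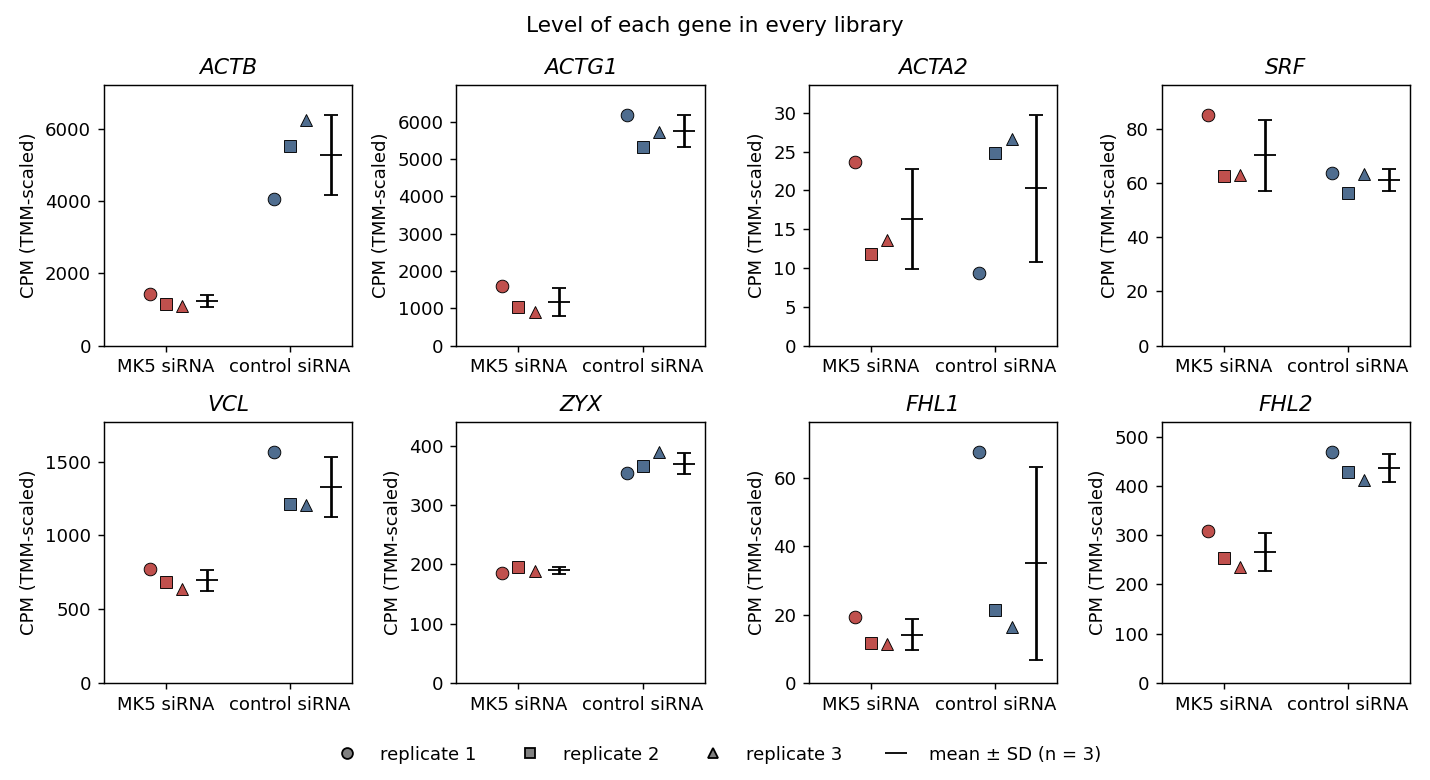
Level of the 8 genes in each library, as TMM-scaled CPM on axes that start at 0, with MK5 siRNA (red) left of control siRNA (blue). Symbols are replicates 1, 2 and 3 and bars are the mean ± SD of 3 libraries. The groups are apart for ACTB, ACTG1, VCL, ZYX and FHL2 and overlap for ACTA2, SRF and FHL1. Control replicate 1 (blue circle) is the lowest library for ACTA2 and the highest for FHL1.

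ACTB (ENSG00000075624) had 1433, 1159 and 1105 CPM in MK5 siRNA replicates 1, 2 and 3, against 4065, 5520 and 6232 CPM in control replicates 1, 2 and 3. The highest MK5 siRNA library stayed far below the lowest control library. The mean was 1233 ± 176 CPM with MK5 siRNA and 5272 ± 1105 CPM with control siRNA (SD, n = 3 each), or 4.28-fold lower with MK5 siRNA. On the log2 scale the change was −2.10 ± 0.20 (edgeR adjusted p = 0.000456). ACTG1 (ENSG00000184009) had 1594, 1026 and 897 CPM in MK5 siRNA replicates 1, 2 and 3, against 6187, 5334 and 5738 CPM in control replicates 1, 2 and 3. The groups were again far apart, with means of 1172 ± 371 CPM with MK5 siRNA and 5753 ± 427 CPM with control siRNA (SD, n = 3 each). Its log2 fold change was −2.29 ± 0.23 (edgeR adjusted p = 0.000574), or 4.91-fold lower. Without replicate 1 of both groups the log2 fold change was −2.37 for ACTB and −2.52 for ACTG1. In both actins replicate 1 showed the smallest difference, −1.50 for ACTB and −1.96 for ACTG1 on log2 CPM with 0.5 added, against −2.25 to −2.68 in replicates 2 and 3.

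Together the 2 cytoplasmic actins took 0.302%, 0.231% and 0.211% of all counts in MK5 siRNA replicates 1, 2 and 3, against 0.948%, 1.07% and 1.18% in control replicates 1, 2 and 3. In the order of mean CPM over all genes tested, ACTB stood at place 62 with MK5 siRNA and at place 4 with control siRNA, and ACTG1 stood at place 66 with MK5 siRNA and at place 3 with control siRNA. The 2 transcripts are close relatives, but only 10 of 1872 windows of 50 bases in the reference ACTB transcript (0.534%) also occur in that of ACTG1, and none occurs in that of ACTA2. Rows named as pseudogenes held few counts. The 10 ACTB pseudogenes summed to between 6 and 14 counts per MK5 siRNA library and between 2 and 16 per control library, and the 19 ACTG1 pseudogenes to between 34 and 37 and between 19 and 24, at most 0.139% of the parent gene. Reads that fit several copies could still have been placed or dropped by the authors' alignment, whose settings the labels and processing notes do not state.

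ACTA2 (ENSG00000107796), the least abundant of the 3 actins, did not show a single direction across replicates. It had 23.7, 11.75 and 13.6 CPM in MK5 siRNA replicates 1, 2 and 3, against 9.39, 24.8 and 26.6 CPM in control replicates 1, 2 and 3. Control replicate 1 was the lowest of all 6 libraries and MK5 siRNA replicate 1 lay close to control replicates 2 and 3, so that the groups overlapped. The log2 fold change was −0.31 ± 0.43 (edgeR adjusted p = 0.583), with a 95% interval from −1.33 to 0.71. Within replicates 1, 2 and 3 the differences were 1.29, −1.05 and −0.94 on log2 CPM with 0.5 added. Without replicate 1 of both groups the log2 fold change was −1.02 and passed (edgeR adjusted p = 9.46e-09, 4 libraries), where 37.8% of all genes fell. That p-value measures the spread between replicates 2 and 3 alone. Exons of FAS and of ACTA2-AS1 overlap those of ACTA2 on the opposite strand, and whether the counting used strand is not stated. FAS had up to 1739 counts in an MK5 siRNA library and up to 2199 in a control library, where ACTA2 had at most 650 and 728, while ACTA2-AS1 had at most 8 and 6. The 5 listed smooth muscle markers summed to between 71.5 and 81.2 CPM with MK5 siRNA and between 153 and 211 CPM in controls, almost all of it SMTN, smoothelin, which fell to 74.7 CPM with MK5 siRNA, against 176 CPM in controls (edgeR adjusted p = 0.00103). MYOCD and DES were at or near 0, and MYH11, below 1 CPM in both groups, rose (edgeR adjusted p = 0.0497). Whether these marker changes bear on the ACTA2 values was not tested.

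SRF (ENSG00000112658) itself did not pass. It had 85.2, 62.6 and 62.9 CPM in MK5 siRNA replicates 1, 2 and 3, against 63.7, 56.3 and 63.4 CPM in control replicates 1, 2 and 3. MK5 siRNA replicates 2 and 3 lay among the controls and replicate 1 above them. The log2 fold change was 0.20 ± 0.15 (edgeR adjusted p = 0.307), with a 95% interval from −0.15 to 0.56. Its value lay between 0.04 and 0.28 when single libraries were left out, was 0.30 with library totals in place of TMM, and was 0.073 without replicate 1 of both groups. The interval leaves out a fall of the size seen in VCL, ZYX or FHL2, whose log2 fold changes lay between −0.96 and −0.71. SRF was the only one of the 8 genes whose log2 fold change was above 0 in the fit to all libraries.

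VCL (ENSG00000035403) had 769.6, 682 and 634 CPM in MK5 siRNA replicates 1, 2 and 3, against 1564, 1216 and 1208 CPM in control replicates 1, 2 and 3. The groups did not overlap, and control replicate 1 was the highest library. The mean was 695 ± 68.9 CPM with MK5 siRNA and 1329 ± 203 CPM with control siRNA (SD, n = 3 each), a log2 difference of −0.94 ± 0.15 in edgeR (adjusted p = 0.00257), or 1.91-fold lower. AP3M1 overlaps VCL exons on the opposite strand, with up to 797 counts in an MK5 siRNA library and 3430 in a control library, where VCL had at least 18821 and 32988 counts. ZYX (ENSG00000159840) had 185, 196 and 189 CPM in MK5 siRNA replicates 1, 2 and 3, against 354, 365 and 389 CPM in control replicates 1, 2 and 3. The libraries of each group lay close together and the groups did not overlap. The mean was 189.8 ± 5.56 CPM with MK5 siRNA and 369.5 ± 17.7 CPM with control siRNA (SD, n = 3 each), a log2 difference of −0.96 ± 0.09 in edgeR (adjusted p = 0.000535), or 1.95-fold lower. EPHA1, which overlaps ZYX exons on the opposite strand, had at most 24 counts in an MK5 siRNA library and 41 in a control library. ZYX was the steadiest of the 8 genes within groups, with a coefficient of variation of 2.93% with MK5 siRNA and 4.79% with control siRNA, and its fold change stayed between −0.99 and −0.94 when single libraries were left out. The ZYX differences within replicates 1, 2 and 3 were −0.94, −0.90 and −1.04 on log2 CPM with 0.5 added.

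FHL2 (ENSG00000115641), a LIM protein of adhesions and the nucleus, had 309, 253 and 236 CPM in MK5 siRNA replicates 1, 2 and 3, against 468, 429 and 413 CPM in control replicates 1, 2 and 3. The groups did not overlap, with means of 266 ± 38.1 CPM with MK5 siRNA and 436 ± 28.6 CPM with control siRNA (SD, n = 3 each). The log2 fold change was −0.71 ± 0.13 (edgeR adjusted p = 0.00500), or 1.64-fold lower. FHL1 (ENSG00000022267), its relative in skeletal and heart muscle, had 19.3, 11.7 and 11.3 CPM in MK5 siRNA replicates 1, 2 and 3, against 67.5, 21.4 and 16.2 CPM in control replicates 1, 2 and 3. Control replicate 1 held more than the other controls together, and MK5 siRNA replicate 1 lay above control replicate 3. The log2 fold change of −1.31 ± 0.55 did not pass (edgeR adjusted p = 0.0895). It was −0.41 without control replicate 1 (edgeR adjusted p = 0.173, where 32.1% of all genes fell) and −1.69 without control replicate 3 (edgeR adjusted p = 0.0402, where 20.2% of all genes fell). FHL1 passed with the replicate number as a block (−1.07, edgeR adjusted p = 0.0360), in DESeq2 (−1.34, adjusted p = 0.0289) and without replicate 1 of both groups (−0.70, edgeR adjusted p = 1.87e-05). In that last fit 37.8% of all genes fell, and its p-value measures the spread between replicates 2 and 3 alone. All 3 differences within replicates were below 0, at −1.78, −0.84 and −0.50 on log2 CPM with 0.5 added, and the largest of them was in replicate 1.

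**Figure D2:**
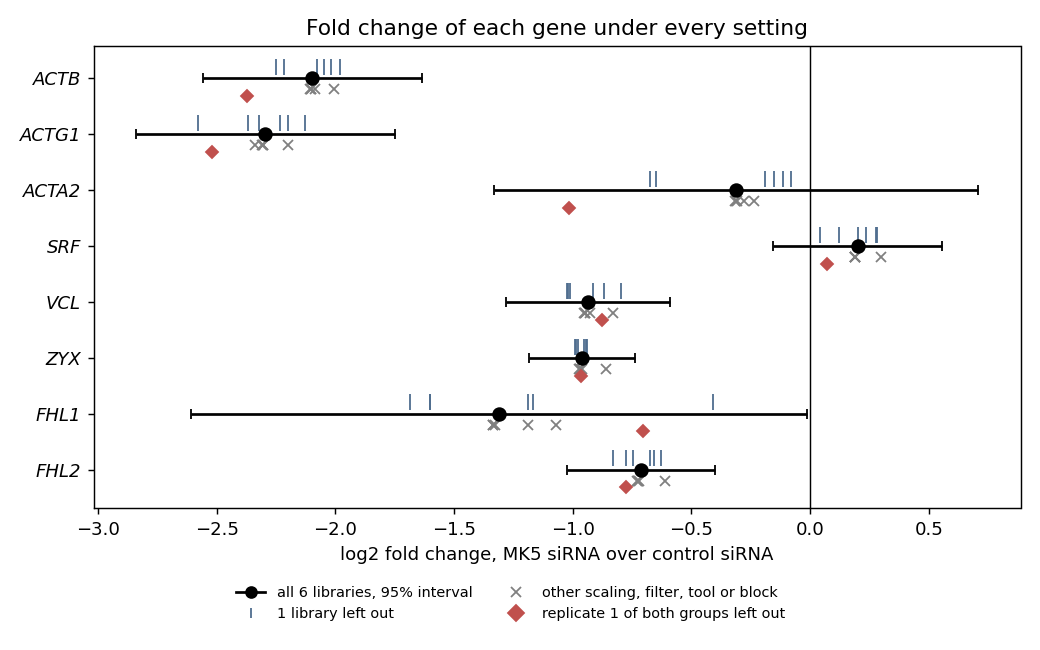
Log2 fold change of each gene, MK5 siRNA over control siRNA, with its 95% interval (black), with single libraries left out (blue ticks), under other scalings, filter, tool or block (grey crosses) and without replicate 1 of both groups (red diamonds). The point estimates of ACTB and ACTG1 stay below −1.9 throughout, that of ZYX hardly moves, and ACTA2 and FHL1 move most.

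Per kilobase of transcript (the median length of each gene's principal coding transcripts in GENCODE release 29), the order of levels in MK5 siRNA libraries was ACTB (680 ± 97.1 CPM per kb), ACTG1 (598 ± 189), FHL2 (182 ± 26.1), VCL (127 ± 12.6), ZYX (76.1 ± 2.23), SRF (16.7 ± 3.09), ACTA2 (12.1 ± 4.77) and FHL1 (6.07 ± 1.94). In control libraries it was ACTG1 (2940 ± 218 CPM per kb), ACTB (2910 ± 610), FHL2 (299 ± 19.6), VCL (242 ± 37.0), ZYX (148 ± 7.10), FHL1 (15.1 ± 12.1), ACTA2 (15.0 ± 7.02) and SRF (14.5 ± 1.00). The libraries of ACTB and ACTG1 overlapped in both groups, as did those of SRF and ACTA2. FHL1, ACTA2 and SRF overlapped one another in the controls, and FHL2 and VCL did so in the controls alone. With MK5 siRNA the cytoplasmic actins were still the most abundant of the 8 per kilobase.

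The fitted falls differed in size. Ratios between the genes within each library were therefore compared, since these do not depend on how libraries are scaled. The log2 ratio of VCL to ACTB counts was −0.90, −0.76 and −0.80 in MK5 siRNA replicates 1, 2 and 3, against −1.38, −2.18 and −2.37 in control replicates 1, 2 and 3. The mean difference was 1.15, or 2.23-fold, with no overlap between groups. The log2 ratio of ZYX to ACTB was −2.96, −2.57 and −2.55 in MK5 siRNA replicates 1, 2 and 3, against −3.52, −3.92 and −4.00 in control replicates 1, 2 and 3, a mean difference of 1.12. The log2 ratio of ACTA2 to both cytoplasmic actins was −7.00, −7.54 and −7.20 in MK5 siRNA replicates 1, 2 and 3, against −10.1, −8.77 and −8.81 in control replicates 1, 2 and 3, a mean difference of 1.98, or 3.95-fold. For these 3 ratios the lowest MK5 siRNA library thus lay above the highest control library, although none of the genes was itself called as higher. Each had a two-sided exact permutation p of 0.1, the smallest that 3 against 3 libraries allow, and 0.167 after Benjamini-Hochberg adjustment over the 5 ratios computed. Only 2.38% of all genes tested had a log2 fold change below that of ACTB, and 1.78% below that of ACTG1. A rise over these denominators would therefore be seen for most genes.

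The ratio of ACTB to ACTG1 differed less. Its log2 value was −0.15, 0.18 and 0.30 in MK5 siRNA replicates 1, 2 and 3, against −0.61, 0.05 and 0.12 in control replicates 1, 2 and 3. The groups overlapped (mean difference 0.25, two-sided exact permutation p = 0.5, adjusted p = 0.625), and the difference was 0.02 without control replicate 1. Replicate 1 gave the lowest ratio in each group. The log2 ratio of FHL1 to FHL2 averaged −4.27 ± 0.24 with MK5 siRNA and −3.93 ± 1.00 with control siRNA (SD, n = 3 each; two-sided exact permutation p = 0.8, adjusted p = 0.8). Its difference of −0.34 became 0.22 without control replicate 1.

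**Figure D3:**
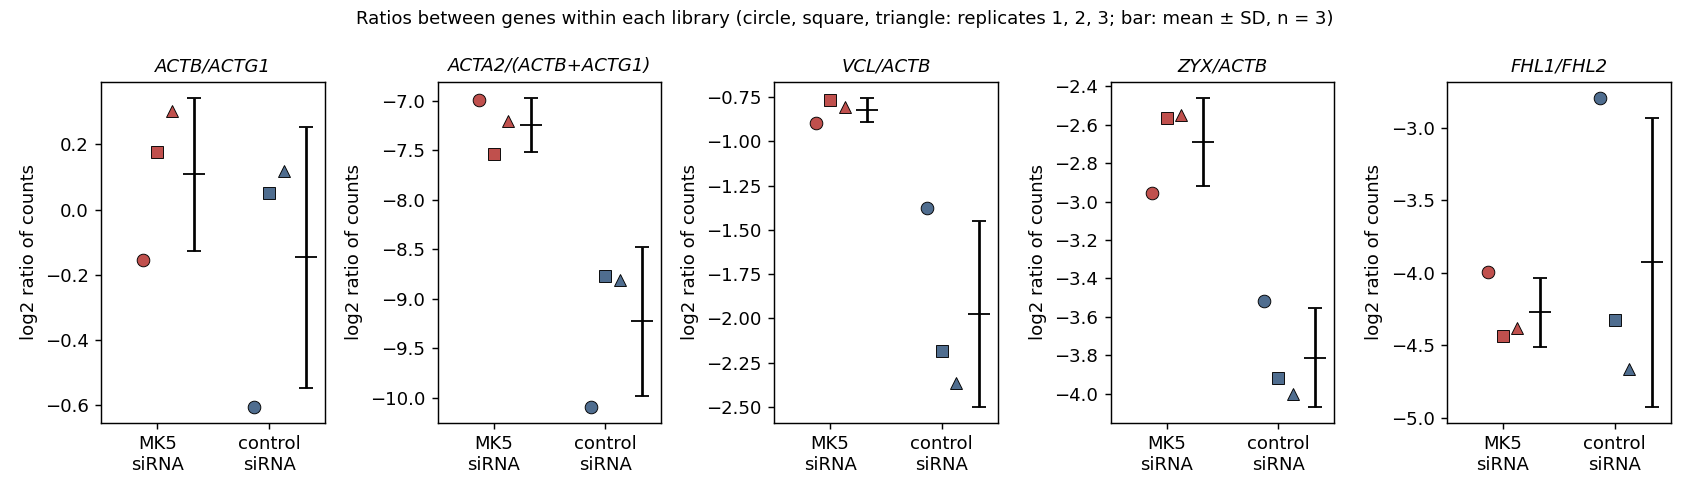
Log2 ratio of counts between genes within each library, MK5 siRNA (red) left of control siRNA (blue), with symbols for replicates and bars for the mean ± SD of 3 libraries; the axes do not start at 0. The ratios of VCL and ZYX to ACTB and of ACTA2 to both cytoplasmic actins are higher in every MK5 siRNA library, and those of ACTB to ACTG1 and of FHL1 to FHL2 overlap.

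Across the 6 libraries, the profile of each gene, as log2(CPM + 0.5) centred on its own mean, was set beside those of the 7755 genes that averaged 20 CPM or more. Likeness was the root mean square difference, given here as a description. Closest to ACTB were NDST1 (0.137), a heparan sulfate enzyme, ACTR3 (0.152), the Arp3 subunit of the complex that branches actin filaments, and NMT2 (0.153), a myristoyltransferase. Closest to VCL were PRKD3, FNIP2 (both 0.042) and PGAM1 (0.047). Closest to ZYX were C1QBP (0.036), CRLS1 (0.047) and POLE (0.048), and closest to FHL2 were SEC14L1, the keratin gene KRT18 (both 0.041) and DNAJB1 (0.052). Among the 8 genes, VCL and FHL2 were the most alike (0.132), followed by VCL and ZYX (0.183), ZYX and FHL2 (0.200) and the pair of cytoplasmic actins (0.296). Close to SRF were ZBTB2 (0.029) and FOXK2 (0.055), which had log2 fold changes of 0.22 and 0.26. ACTA2 was nearest to CCDC80 (0.075), DHRS3 (0.161) and GAS6 (0.212), and FHL1 to MEST (0.122), UHMK1 (0.191) and NFE2L3 (0.193).

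Of SRF's partners, the ternary complex factor gene ELK3 fell and its relative ELK4 rose, while ELK1 and the MRTF genes did not pass. Of 9 listed cofactors and regulators 7 were tested, of which 1 fell and 1 rose (14.3% each, below the 23.7% and 22.5% of all genes tested). ELK3, a ternary complex factor that can repress, fell to 30.6 ± 2.83 CPM with MK5 siRNA, against 187 ± 52.4 CPM with control siRNA (−2.61 ± 0.21, edgeR adjusted p = 0.000318). ELK4 rose to 69.3 ± 8.27 CPM with MK5 siRNA, against 45.1 ± 5.72 CPM with control siRNA (0.62 ± 0.14, edgeR adjusted p = 0.0114). MKL1 and MKL2, which encode MRTF-A and MRTF-B, had log2 fold changes of −0.04 ± 0.21 and −0.12 ± 0.13 (edgeR adjusted p = 0.878 and 0.481). MKL1 was −0.25 and passed without control replicate 1 (edgeR adjusted p = 0.0133) and without replicate 1 of both groups (edgeR adjusted p = 0.00197), and was above 0 with library totals alone and without control replicate 2 or 3. ELK1 (0.23 ± 0.11), SCAI, an inhibitor of MRTF (−0.84 ± 0.31), and MAMSTR (−0.81 ± 0.45) were short of the threshold, with edgeR adjusted p of 0.116, 0.0625 and 0.180. MAMSTR stands in the list of cofactors, but its action on SRF was not tested. With the replicate block SCAI (−0.78, edgeR adjusted p = 0.0497) and MAMSTR (−0.77, edgeR adjusted p = 0.0443) passed. SCAI also passed in DESeq2 (adjusted p = 0.0409) and without control replicate 3 (edgeR adjusted p = 0.0433), and MAMSTR without control replicate 1 (edgeR adjusted p = 0.0101). Without replicate 1 of both groups all 3 passed, ELK1 at 0.18 (edgeR adjusted p = 0.0218), where 37.9% of all genes rose. Myocardin (MYOCD) and ABRA had at most 1 count in any library.

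Most genes of the SRF target classes lay on opposite sides of 0. All gene lists were chosen with earlier results of these data known, so the shares called in them are descriptions only. Of 23 cytoskeletal and contractile targets tested, 15 fell (65.2%, against 23.7% of all genes tested) and none rose in edgeR, with a median log2 fold change of −0.80, against 0.00 over all genes. DESeq2 also called 0 as higher, and 0 members above 0 had an unadjusted p below 0.05. The 8 that did not pass were all higher with MK5 siRNA in replicate 1, by 0.17 to 2.07 on log2 CPM with 0.5 added. TAGLN (0.16 ± 0.50) and ITGA5 (0.20 ± 0.15), named after their values were seen, were above 0 in the fit. Between 13 and 21 fell when single libraries were left out. The fewest fell without MK5 siRNA replicate 2 or 3, where 2103 and 2162 of all genes fell, against 3186 in the fit to all libraries. The count was 21 without control replicate 1 (32.1% of all genes fell) and 22 without replicate 1 of both groups (37.8%). The largest falls were in the calponin gene CNN1, with 10, 3 and 1 counts in MK5 siRNA replicates 1, 2 and 3, against 136, 91 and 76 counts in control replicates 1, 2 and 3 (−4.48 ± 0.63), the myosin light chain kinase gene MYLK (−2.08 ± 0.39), the alpha-actinin gene ACTN4 (−1.60 ± 0.14) and the tropomyosin gene TPM1 (−1.16 ± 0.23), with edgeR adjusted p from 0.000384 to 0.00618. MYLK was −2.44 and TPM1 −1.51 without replicate 1 of both groups. Without MK5 siRNA replicate 1, which held most of its few counts, CNN1 was −5.69. Of 9 tested immediate early targets linked to the ternary complex factors, 6 rose (66.7%, against 22.5% of all genes tested) and none fell in edgeR, with a median of 2.01. DESeq2 also called 0 as lower, and 1, MCL1, an anti-apoptotic gene named after its value was seen, was lower at an unadjusted p below 0.05 (−0.52 ± 0.20, edgeR adjusted p = 0.0716). Between 4 and 8 rose with single libraries left out, the fewest without MK5 siRNA replicate 1 or control replicate 3. There 2502 and 2313 of all genes rose, against 3020 in the fit to all libraries. The most rose without MK5 siRNA replicate 3, where 2104 of all genes did. EGR1 (2.12 ± 0.73) and NR4A1 (1.60 ± 0.59), named after their values were seen, did not pass (edgeR adjusted p = 0.0503 and 0.0620). EGR1 had 93.8, 15.6 and 18.8 CPM in MK5 siRNA replicates 1, 2 and 3, against 5.82, 12.8 and 10.9 CPM in control replicates 1, 2 and 3. Of the 6 called as higher, FOSB (4.97 ± 0.54), FOS (4.71 ± 1.05), EGR2 (2.81 ± 0.79) and EGR3 (2.01 ± 0.56) rose most (edgeR adjusted p from 0.000735 to 0.0242). FOSB averaged 43.2 ± 25.1 CPM with MK5 siRNA and 1.37 ± 0.653 CPM with control siRNA (SD, n = 3 each). FOS had 29.7, 3.58 and 3.27 CPM in MK5 siRNA replicates 1, 2 and 3, against 0.613, 0.405 and 0.366 CPM in control replicates 1, 2 and 3. It was 2.88 without MK5 siRNA replicate 1, and DESeq2 gave it no adjusted p. FOSB was 4.14 without replicate 1 of both groups. EGR2 and EGR3, both below 1 CPM on average in each group, lost their calls without that library, at 2.01 and 1.37 (edgeR adjusted p = 0.0693 and 0.0526), and without control replicate 3 (edgeR adjusted p = 0.0706 and 0.0532). EGR3 also lost its call without control replicate 2 (edgeR adjusted p = 0.0713), and EGR2 was 3.87 without that library. The better measured JUNB (1.78 ± 0.26) and IER2 (1.01 ± 0.24), named after their values were seen, rose as well (edgeR adjusted p = 0.00209 and 0.0134), and were 1.51 and 0.60 without replicate 1 of both groups.

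Partners of zyxin and vinculin fell or did not pass. Of 20 tested, 13 fell (65.0%, against 23.7% of all genes tested) and none rose in edgeR, with a median of −0.64. Besides ACTN4, which this list shares with the cytoskeletal targets, the talin gene TLN2 fell by 1.99 on the log2 scale, the zyxin relative TRIP6 by 1.37 and FBLIM1, migfilin, by 1.25 (edgeR adjusted p from 0.000209 to 0.000818). Between 9 and 13 fell when single libraries were left out, the lowest count being without MK5 siRNA replicate 2 or 3. There 2103 and 2162 of all genes fell, against 3186 in the fit to all libraries. TLN2 averaged 17.6 ± 1.92 CPM with MK5 siRNA and 69.8 ± 5.61 CPM with control siRNA (SD, n = 3 each). DESeq2 also called 0 as higher and 0 members above 0 had an unadjusted p below 0.05, but 2 rose without control replicate 1, where 32.3% of all genes rose. Of 4 tested relatives of the FHL proteins and small LIM genes, 1 fell and 1 rose. These shares were close to those of all genes tested (23.7% and 22.5%). CSRP1 fell (−0.65 ± 0.14, edgeR adjusted p = 0.00921) and CRIP2 rose (1.80 ± 0.41, edgeR adjusted p = 0.0110). CRIP2 was 2.39 without control replicate 1. FHL3, a further FHL gene named after its value was seen, was at −0.28 ± 0.31 (edgeR adjusted p = 0.489).

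Among 27 genes of the actin monomer pool and of filament turnover, 12 fell (44.4%, against 23.7% of all genes tested) and 3 rose (11.1%, against 22.5%), with a median of −0.41. DIAPH3, a formin, fell by 1.19 on the log2 scale, the filament-severing cofilin gene CFL1 by 1.07, the capping protein gene CAPZA1 by 0.98 and WDR1, a cofilin cofactor, by 0.97 (edgeR adjusted p from 0.00133 to 0.0210). CFL1 averaged 483 ± 40.4 CPM with MK5 siRNA and 1013 ± 170 CPM with control siRNA (SD, n = 3 each). CFL1 and WDR1 also stand among the cytoskeletal targets. DIAPH3 fell by 0.72 without control replicate 1, and its call was lost when MK5 siRNA replicate 2 or 3 was left out (edgeR adjusted p = 0.0794 and 0.0751). The 3 that rose, named after their values were seen, were the formins FMNL2 (0.83 ± 0.24) and DAAM1 (0.75 ± 0.25) and the cofilin phosphatase gene SSH1 (0.75 ± 0.17; edgeR adjusted p from 0.0117 to 0.0457). FMNL2 and DAAM1 did not pass in 5 and 4 of the 6 fits that left out 1 library, nor DAAM1 with the replicate block (edgeR adjusted p = 0.0821). FMNL2 was 1.21, DAAM1 0.40 and SSH1 0.48 without replicate 1 of both groups. Of 17 genes that fold or modify actin, 9 fell (52.9%, against 23.7% of all genes tested) and none rose in edgeR (22.5% of all genes did), with a median of −0.50. The prefoldin gene PFDN1 (−1.41 ± 0.11), the chaperonin subunit genes CCT2 (−1.16 ± 0.10) and CCT5 (−0.70 ± 0.12) and the chaperonin cofactor gene PDCL3 (−0.75 ± 0.15) fell most (edgeR adjusted p from 0.000248 to 0.00697). DESeq2 also called 0 as higher and 0 members above 0 had an unadjusted p below 0.05, but 2 rose without control replicate 1 (32.3% of all genes did).

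The remaining actins and actin-related genes gave few calls. The muscle actin genes ACTA1 and ACTC1 averaged below 0.1 CPM in both groups and were not tested. ACTG2, the smooth muscle gamma actin, had 4, 4 and 3 counts in MK5 siRNA replicates 1, 2 and 3, against 2, 50 and 58 counts in control replicates 1, 2 and 3. As in ACTA2, control replicate 1 was the lowest library. ACTL6A, an actin-related subunit of chromatin remodellers, fell (−0.52 ± 0.17, edgeR adjusted p = 0.0393), but was −0.32 without control replicate 1 and did not pass with library totals alone (edgeR adjusted p = 0.0646), with the replicate block (edgeR adjusted p = 0.0667), or without control replicate 3 or any 1 of the MK5 siRNA libraries (edgeR adjusted p from 0.0591 to 0.120). The dynactin genes ACTR1A (−0.0048 ± 0.097) and ACTR1B (0.24 ± 0.13) and the actin-like ACTBL2 (−0.84 ± 0.48, below 1 CPM) were short of the threshold, with edgeR adjusted p of 0.971, 0.167 and 0.189. ACTBL2 passed without control replicate 1 (edgeR adjusted p = 0.0195) and without replicate 1 of both groups (edgeR adjusted p = 0.0111). None of the 4 tested rose in edgeR or DESeq2 (22.5% and 19.1% of all genes did), and 0 above 0 had an unadjusted p below 0.05.

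**Figure D4:**
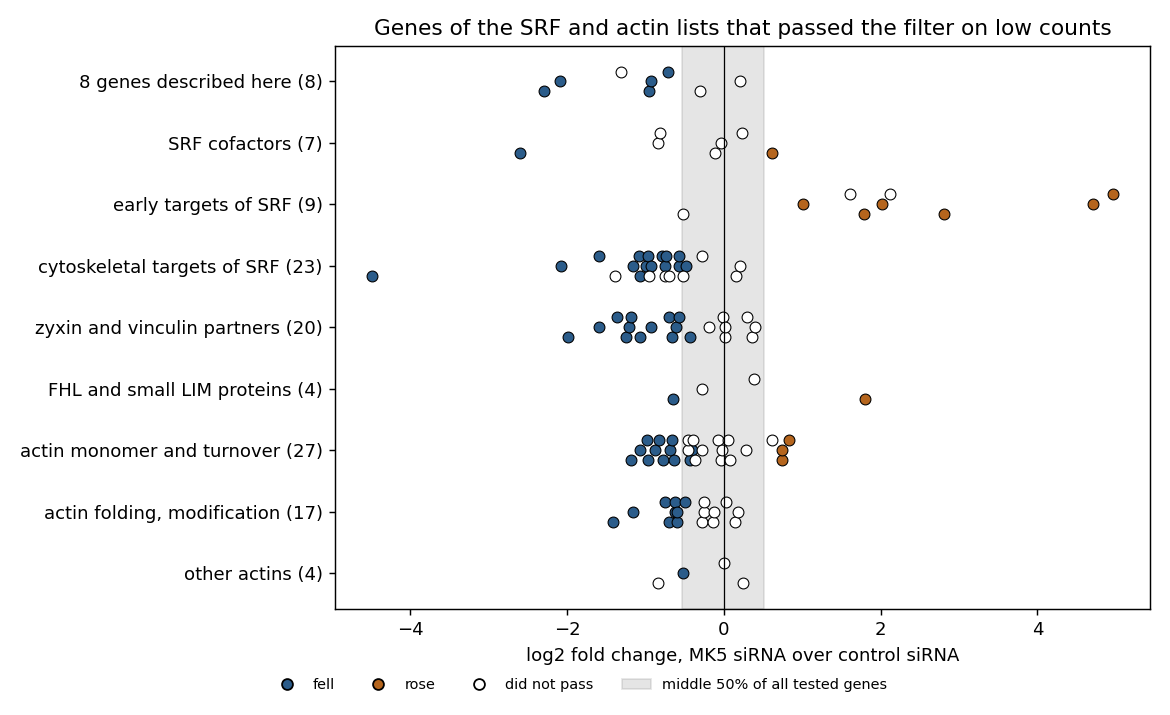
Log2 fold change, MK5 siRNA over control siRNA, of the 8 genes and of the listed genes that passed the filter on low counts (number in brackets), coloured by the call and spread vertically for sight alone; the grey band spans the quartiles of all genes tested. Most early targets of SRF lie to the right, and most cytoskeletal targets and partners of zyxin and vinculin lie to the left.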

How the data were processed

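The deposited table holds 1 column of whole-number counts per gene for each of the 6 libraries, although its name speaks of CPM. Per the labels' protocols, total RNA went into the TruSeq V2 kit. Per the submitters' processing notes, the tools were HTSeq 0.9.1, TopHat2 2.1.1, Trimmomatic 0.36 and FastQC and the build was GRCh37, with no settings, annotation release or strand named. Genes that passed filterByExpr (minimum count 10, minimum total 15) were scaled by TMM in edgeR 4.0.16 (R 4.3.3), which tested MK5 siRNA against control siRNA with the quasi-likelihood F test, two-sided, with Benjamini-Hochberg adjustment over 13431 genes and a threshold of 0.05. The fit was also run on simulated counts in which 200 genes were changed. No simulated library was made to stand apart, so that run does not cover the spread of replicate 1. The standard error is the fold change divided by the square root of F, and 95% intervals use the fit's degrees of freedom. With counts of this depth the precision of the members is set by the spread between libraries (common biological coefficient of variation 21.2%). Alternatives were the DESeq2 1.42.0 test, other scalings, no filter, a replicate block and libraries left out. The groups share replicate numbers, and same-numbered libraries deviated together from their group means (r = 0.284, 0.203 and 0.235 across genes). They were therefore treated as pairs for the block, although the labels name no shared day and replicates 2 and 3 also correlated crosswise (r = 0.186 and 0.171). Ratios were compared with exact permutation tests. Promoter sequences are RefSeq's (GRCh38.p14), which differs from the authors' build, so no coordinate of the counts is given. Members and lists were chosen with earlier results of these data known. Named list genes are the 4 largest called changes per list, all tested SRF cofactors and other actins, and the 3 nearest profiles per member except ACTG1, of which 1 is not reported here.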

Additional observations from a re-analysis of the deposited data

How the results depend on the processing

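Over the 12 alternatives, the 8 members gave 96 comparisons with the fit to all libraries, of which 91 kept direction and side of the threshold, 5 newly passed, 0 lost the call and 0 changed sign. Of 467 such comparisons for 39 other genes (MAPKAPK5, YAP1 and the listed SRF and actin genes named in the results, without MCL1, EGR1, NR4A1, TAGLN, ITGA5, FHL3, the cell markers and the nearest profiles), 426 kept both, 23 lost the call, 12 newly passed and 6 changed sign. With library totals in place of TMM the median of all genes was 0.10 on the log2 scale, and every value is shifted by about that much. Over all genes, leaving out single libraries gave between 2103 and 4419 lower and between 2064 and 4455 higher calls, and leaving out replicate 1 of both groups gave 5177 lower and 5195 higher.

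Without replicate 1 of both groups, ACTA2 passed at −1.02 and FHL1 at −0.70, and FHL1 also passed in DESeq2 (−1.34) and with the replicate block (−1.07). With single libraries left out FHL1 ranged from −1.69 to −0.41. Without replicate 1 of both groups 37.8% of all genes fell and 37.9% rose. This exclusion gave 4 lower and 2 higher calls among 7 listed cofactors. It also gave 1 lower among 9 early targets and 2 lower among 4 other actins. It gave 2 higher among 17 folding genes, 19 lower and 5 higher among 27 turnover genes, 2 higher among 20 partners, and 2 lower and 2 higher among 4 LIM genes. The replicate block gave 3 lower calls among cofactors, 1 lower among early targets and 0 among other actins, where 23.9% of all genes fell. DESeq2 gave 2 lower among cofactors, where 21.2% of all genes fell. Library totals gave 0 lower among other actins and 5 higher among turnover genes, where 2714 of all genes fell and 3544 rose. Leaving out single libraries gave 1 to 3 lower calls among cofactors, 0 to 1 lower among early targets, 0 to 2 lower among other actins, 0 to 2 higher among folding genes, 1 to 5 higher among turnover genes, 0 to 2 higher among partners and 1 to 2 lower among LIM genes. The highest counts were reached without control replicate 1, where 32.1% of all genes fell and 32.3% rose. Values that changed sign were ACTR1A (0.0953 with library totals and from −0.0532 to 0.0389 with single libraries left out), MKL1 (0.0502 with library totals and from −0.252 to 0.0726) and the FHL1 to FHL2 log2 ratio (0.0876 without replicate 1 of both groups and from −0.71 to 0.22). The ZYX to ACTB log2 ratio was 1.40 without replicate 1 of both groups. The cause of these changes was not tested. The replicate block changed no other call of a member.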
